A study of Mus musculus with 18 samples.

Results

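The step from 10 to 30 min after induction was followed in C/EBPα ChIP-seq reads of C10 cells, a mouse pre-B cell line derived from HAFTL cells that carries a C/EBPαER-GFP fusion, in which β-estradiol moves the fusion protein into the nucleus and starts conversion into macrophage-like cells. The 2 libraries compared are C/EBPα (antibody sc-61) at 10 min and at 30 min of induction with β-estradiol, in cells grown with IL-3 and CSF-1 in phenol-red-free medium with charcoal/dextran-treated serum. They are 2 of 18 libraries, all from the same line: 8 of C/EBPα, at 0 hours post-induction (hpi), 10, 30 and 60 min and 3, 12, 24 and 48 hpi, 5 of C/EBPβ and 5 of PU.1, at the same times without the minutes. The promoter that drives the fusion and the clonal state of the line are not given in the sources used here, and ChIP reads measure DNA association, so the pre-B identity of the cells was not checked against expression of its markers. The members are the 200-bp bins of mm9 chromosomes 1 to 19 with 10 or more reads in either library, after the 24917810 reads at 10 min had been drawn down to the 13003437 reads at 30 min. There were 28174 such bins of 12361722, or 0.228%, in 18458 runs of adjoining bins. Each time point is 1 library, so no comparison below has a replicate check and no p-value is given. Intervals are 95% exact (Clopper-Pearson) intervals that cover counting error only.

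C/EBPα is a basic leucine zipper factor that drives granulocyte and macrophage genes, and it binds as a dimer to sequences of the TTGCNNAA type, among which TTGCGCAA is a full palindrome. C/EBPβ, a close relative, recognizes the same sequence, and PU.1, an ETS factor needed for both B cells and macrophages, binds GAGGAA-type sequences. In pre-B cells PU.1 is present while C/EBPα is normally silent, so the fusion meets chromatin on which PU.1 is already placed. The paper also reports weak C/EBPα signals in these cells before induction and proposes that the transgene is somewhat leaky.

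The sequences below lie at the highest point of the 30-min reads and are 120 bases long, from the plus strand of mm9. They were picked from windows that held a marked sequence. The first 4 come from the 12 regions with the strongest rise from 10 to 30 min, the next 3 come from regions with the most reads in both libraries, and the last comes from the PU.1 gene, Sfpi1. Capitals mark TTGCNNAA or the C/EBP-ATF sequence TTGCATCA on either strand. The windows are chr2:91631789-91631908 in an intron of Ambra1, chr1:80633397-80633516 in an intron of Dock10, chr2:131976792-131976911 between genes and nearest to Slc23a2, chr1:97425482-97425601 between genes and nearest to St8sia4, chr5:99558546-99558665 between genes and nearest to Prkg2, chr5:53846048-53846167 between genes and nearest to Rbpj, chr11:100813329-100813448 between genes and nearest to Stat3, and chr2:90923117-90923236 in an intron of Sfpi1.
Ambra1: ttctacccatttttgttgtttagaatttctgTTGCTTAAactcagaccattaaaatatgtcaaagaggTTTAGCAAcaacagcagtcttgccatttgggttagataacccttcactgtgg
Dock10: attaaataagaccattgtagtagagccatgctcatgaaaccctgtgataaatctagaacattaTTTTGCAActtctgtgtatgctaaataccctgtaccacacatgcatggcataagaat
Slc23a2: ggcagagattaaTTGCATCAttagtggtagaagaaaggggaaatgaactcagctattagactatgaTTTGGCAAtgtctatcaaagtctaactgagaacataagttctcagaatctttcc
St8sia4: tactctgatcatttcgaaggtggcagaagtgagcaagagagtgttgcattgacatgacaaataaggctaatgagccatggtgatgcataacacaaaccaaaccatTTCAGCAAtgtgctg
Prkg2: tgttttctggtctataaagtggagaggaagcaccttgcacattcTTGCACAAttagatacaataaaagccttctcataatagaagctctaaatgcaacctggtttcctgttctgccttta
Rbpj: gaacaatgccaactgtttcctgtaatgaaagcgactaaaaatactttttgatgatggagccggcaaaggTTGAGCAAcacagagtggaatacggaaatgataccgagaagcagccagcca
Stat3: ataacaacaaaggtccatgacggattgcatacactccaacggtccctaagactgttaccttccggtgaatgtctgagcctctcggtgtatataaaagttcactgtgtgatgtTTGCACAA
Sfpi1: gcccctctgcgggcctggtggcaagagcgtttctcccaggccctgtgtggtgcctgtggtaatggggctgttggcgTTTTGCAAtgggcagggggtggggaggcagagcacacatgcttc
Ambra1 held a pair of consensus matches, TTGCTTAA and TTTAGCAA, while Slc23a2 held the C/EBP-ATF sequence beside TTTGGCAA. Prkg2 and Stat3 shared TTGCACAA, and Dock10 and Sfpi1 shared TTTTGCAA. Of the 11 windows read from the strongest rises, 5 held a marked sequence, as did 4 of the 8 from the regions with the most reads. A match is a description of the letters only, and a window without one says nothing about binding.

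Nearly all bins gained reads between 10 and 30 min. The count was higher at 30 min in 26995 of the 28174 bins, lower in 1053 and equal in 126. The median bin held 6 reads at 10 min, with quartiles of 3 and 11, and 18 reads at 30 min, with quartiles of 12 and 33. At least 2-fold higher counts were found in 23227 bins, a share of 82.4% that is the background for every count of higher bins below, and at least 4-fold higher counts in 12397 bins (44.0%). At least 2-fold lower counts were found in 426 bins (1.51%). This last count depended most on the setting, and was 49 with the whole 10-min library scaled to the depth of 30 min, 5 with a minimum of 20 reads and 15454 with 500-bp bins. With the added condition that the exact interval leave out equal counts, 18954 bins were higher (67.3%) and 214 lower (0.760%). The median log2 ratio of 30 over 10 min, with 0.5 added to each count, was 1.72, with quartiles of 1.16 and 2.40.

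The same bins took 2.05% of all reads at 10 min (interval 2.04 to 2.06) and 6.51% at 30 min (interval 6.49 to 6.52), against 1.21% in the 0-hpi library and 6.33% at 60 min. A different strength of binding and a different yield of the 2 immunoprecipitations cannot be told apart with 1 library per time point and no input or spike-in, so the overall size of the rise is that of these libraries. Bins outside the members held 1.04 reads on average at 10 min and 0.988 at 30 min.

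**Figure D1:**
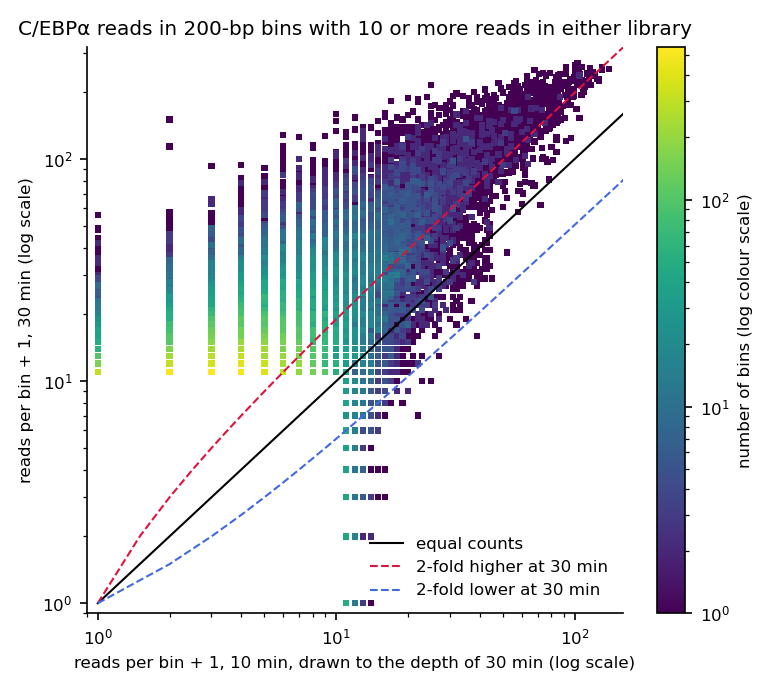
C/EBPα reads per 200-bp bin at 10 min (x axis, drawn to the depth of 30 min) and at 30 min (y axis), both plus 1 on log axes, for the 28174 bins, with colour giving the number of bins at each pair of counts. Most bins lie above the dashed 2-fold line, and 23227 of them are at or past it, while 426 are at or past the 2-fold line on the other side.

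The rule itself uses these counts, so bins enter unequally. Of the members, 19404 reached 10 reads only at 30 min, 704 only at 10 min and 8066 in both libraries. At the edge of the rule, 3451 bins had a highest count of 10 reads and 5560 bins just outside it had 9. The rise was therefore also computed with other reads. The 11914373 reads of the 10-min library that were not drawn put the summed ratio over the members at 3.22, against 3.17 with the drawn reads, but this replaces the 10-min counts only, and the 30-min reads that chose most members still enter the ratio. In 31592 bins chosen by 10 or more reads at 60 min, drawn to the same depth, 24401 were at least 2-fold higher at 30 than at 10 min (77.2%) and 633 at least 2-fold lower (2.00%). Their medians were 5 reads at 10 min and 15 at 30 min. A choice by 60-min reads favours bins that are high after 10 min, so it does not free the comparison of choice. In 7740 bins chosen by the undrawn 10-min reads, the choice that favours 10 min, 5574 were still at least 2-fold higher at 30 min.

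The rise was not the same at all levels. Among bins chosen and sorted by their 60-min reads, the summed ratio of 30 over 10 min was 2.37 in the 11392 bins with 10 to 14 reads at 60 min, 2.96 in the 5531 bins with 20 to 29, 3.61 in the 3580 bins with 50 to 99 and 2.85 in the 150 bins with 150 or more. The uncorrected ratio was therefore highest at intermediate levels. In the lowest class the medians were only 3 reads at 10 min and 8 at 30 min. Bins outside the members held 1.04 and 0.988 on average. Ratios by level with such background taken off were not computed, so the order of levels holds for uncorrected counts only. A 200-bp bin can hold at most 400 reads at 1 read per position and strand, and the highest counts were 139 at 10 min and 269 at 30 min. A correction for such filled positions, or taking the mean of the other bins off, put the median log2 ratio at 1.77 and 1.94 in place of 1.72.

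The level of the members was highest in the libraries from 30 min to 3 hpi. In normalised reads, which here means reads per 10000000 of a library, the bins at least 4-fold higher had a median of 2.26 at 0 hpi, 2.41 at 10 min, 14.6 at 30 min, 16.9 at 60 min, 13.5 at 3 hpi, 6.70 at 12 hpi, 3.95 at 24 hpi and 3.77 at 48 hpi. All members had nearly the same late medians, 12.6 at 3 hpi, 6.70 at 12 hpi, 5.27 at 24 hpi and 3.77 at 48 hpi. The bins under 2-fold in either direction started from 4.51 at 0 hpi and 7.63 at 10 min, reached 10.8 at 30 min and 11.3 at 60 min, and stood at 5.03 at 48 hpi. The 10- and 30-min medians follow from the choice of the classes, whereas the other libraries were not used for it. Members had to reach 10 reads at 10 or 30 min, so bins gained only later are not among them. Lower levels in the late libraries follow in part from that choice. Of the 23227 bins at least 2-fold higher at 30 min, 10786 (46.4%) held at least as many reads at 60 min as at 30 min. The choice of these bins by high 30-min counts lowers that share. In 18279 (78.7%) the reads at 60 min were at least 2-fold above the undrawn 10-min reads. These 2 shares were 43.5% and 38.2% in the bins under 2-fold in either direction. In the bins at least 2-fold lower they were 74.4% and 20.2%. The 10-, 30- and 60-min libraries came from a HiSeq2000 with 50-base reads and the other C/EBPα libraries from a GA IIx with 36-base reads, so levels across the 2 kinds are set side by side only.

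**Figure D2:**
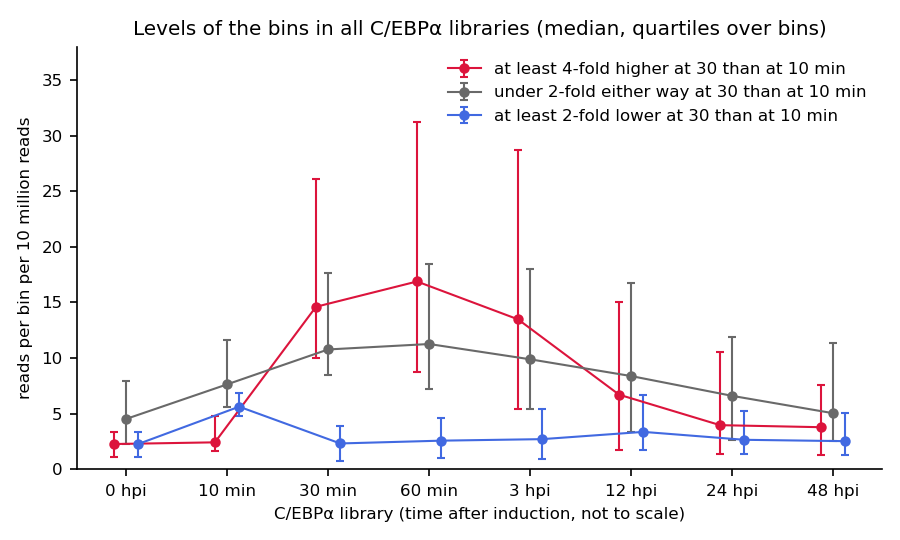
Median C/EBPα reads per bin and 10000000 reads in the 8 C/EBPα libraries (x axis, not to scale in time), with bars for the quartiles over bins, for bins at least 4-fold higher, under 2-fold either way and at least 2-fold lower at 30 than at 10 min. The first class goes from 2.41 at 10 min to 14.6 at 30 min and back to 3.77 at 48 hpi, and the last has 5.62 at 10 min, the library that chose it, and 2.26 to 3.35 in the others.

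Bins that carried C/EBP or PU.1 before induction had smaller ratios of 30 over 10 min than the rest. They started from higher counts at 10 min, and the step between their medians was not smaller in reads. A bin was counted as carrying a factor when it or an adjoining bin had 10 or more reads of that factor at 0 hpi. C/EBPα reads at 0 hpi were found at 3136 members (11.1%, against 0.0540% of all bins), and their medians were 16 reads at 10 min and 32 at 30 min. The other 25038 members had medians of 5 and 17. The summed ratio was 2.31 with and 3.48 without C/EBPα at 0 hpi, and 61% of the former (interval 59.3 to 62.7) against 85.1% of the latter (84.7 to 85.6) were at least 2-fold higher. For C/EBPβ at 0 hpi the corresponding 928 members had medians of 25 and 39 reads, a summed ratio of 2.05 against 3.31 elsewhere, and 51.9% higher bins. Without runs of 8 or more bins, described below, 716 of these members remained. They had medians of 22 and 50 reads, a ratio of 2.34 against 3.34, and 66.2% higher bins. The cut of 10 reads was not scaled to depth. The 0-hpi libraries held 4283178 reads for C/EBPβ, 8868524 for C/EBPα and 7052065 for PU.1. For PU.1 at 0 hpi the 8102 members (28.8%, against 0.686% of all bins) had medians of 8 and 21 reads, a summed ratio of 2.75 against 3.46, and 76.0% against 85.0% higher bins.

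These factors overlapped. The 1483 members with both PU.1 and C/EBPα at 0 hpi had a summed ratio of 2.14, the 1653 with C/EBPα alone 2.52, the 6619 with PU.1 alone 3.10 and the 18419 with neither 3.69. The undrawn 10-min reads gave 2.15, 2.59, 3.11 and 3.77 in the same order. Each factor was also compared singly within a level. Among bins with 50 to 99 reads at 60 min, the ratio was 2.60 in the 682 with C/EBPα at 0 hpi and 4.08 in the 2898 without, 2.21 in the 217 with C/EBPβ at 0 hpi and 3.81 in the 3363 without, and 3.11 in the 1154 with PU.1 at 0 hpi and 3.99 in the 2426 without. Part of the gap came from long runs of bins that were high in all libraries, described below. Without such runs the 60-min choice gave 2.40, 2.58, 3.07 and 3.62 for both, C/EBPα alone, PU.1 alone and neither.

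Around the C/EBP consensus the reads formed a peak, part of which follows from the choice of the bins. In member bins with 1 consensus match, the mean reads per 20 bp and site within 100 bp of the match, per 10000000 reads, were 0.794 at 0 hpi, 1.54 at 10 min, 4.48 at 30 min and 3.97 at 60 min at the 1331 sites with PU.1 at 0 hpi. At the 4780 sites without PU.1 they were 0.491, 0.775, 2.79 and 3.00. The bins were chosen by their 10- and 30-min reads and the 60-min reads had no part in it, so the choice favours 30 over 60 min and no order of these times is read from the values. The same choice favours a peak and a gain inside the bins, and no other point in the bins was profiled for comparison. The outermost parts of the window, which reached 1000 bp to each side, held 0.168 at 10 min and 0.274 at 30 min at sites with PU.1, and 0.148 and 0.237 at sites without.

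**Figure D3:**
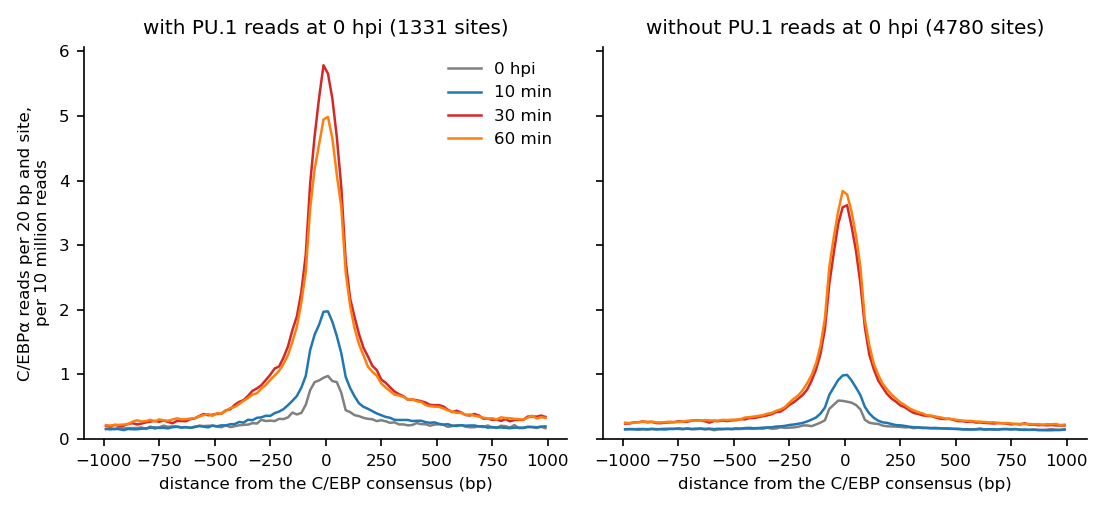
Mean C/EBPα reads per 20 bp and site, per 10000000 reads (y axis), by distance from the C/EBP consensus in bp (x axis) at 0 hpi and 10, 30 and 60 min, for 1331 sites with PU.1 reads at 0 hpi (left) and 4780 without (right). All curves peak at the consensus, and the 30-min reads helped to choose the bins while the 60-min reads did not. A peak and a gain inside the bins follow in part from that choice.

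The consensus was found in 6853 members (24.3%, interval 23.8 to 24.8), against 9.28% of all bins of the genome. Bins with it had a summed ratio of 3.42 and 88.0% were at least 2-fold higher, against 3.08 and 80.6% without it. This order did not hold at all levels. Among bins chosen and sorted by their 60-min reads, the ratio was larger with the consensus in each class below 100 reads. At 50 to 99 reads it was 3.75 with and 3.55 without the consensus. The order was reversed from 100 to under 150 reads, with 3.43 and 3.58, and at 150 or more, with 2.72 and 3.05. More copies went with larger ratios up to a pair: 3.08 with none, 3.36 with 1 copy, 3.996 with 2 and 3.58 in the 54 bins with 3 or more. The C/EBP-ATF sequence, at which C/EBP can pair with an ATF factor, was in 849 members (3.01% against 0.617% of all bins), with a ratio of 3.31.

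The ratio differed between the forms of the consensus. The full palindrome TTGCGCAA was in only 1941 bins of the genome, of which 222 were members, a share of 11.4% against 0.235% for all bins. These bins had medians of 10 reads at 10 min and 26 at 30 min and the lowest ratio of the 16 forms, 2.31, with 72.5% at least 2-fold higher. C/EBPα reads at 0 hpi were already found at 136 of the 222. Promoter bins made up 35.1% of the palindrome members and 13.7% of those with TTGCAAAA, against 11.5% of all members. Members with TTGCGGAA were promoter bins in 34.7% of cases and had a ratio of 3.53. The part of promoter position in the ratios of the forms was not tested. TTGCGTAA came next, with 4.86% of its bins members, a ratio of 2.89 and C/EBPα at 0 hpi in 87 of 243. At the other end TTGCAAAA, whose bins were members in 0.649% of cases, had the highest ratio, 3.96, with 91.3% at least 2-fold higher and C/EBPα at 0 hpi in 46 of 848. TTGCACAA, the form with the most members, 1174, had a ratio of 3.46. In bins chosen by the 60-min library the ratios were 2.28 for TTGCGCAA, 2.84 for TTGCGTAA and 3.90 for TTGCAAAA.

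Motifs of other factors were searched in the same way, on both strands. EBF1, a B cell factor, with TCCCNNGGG, was in 8.17% of members against 1.87% of all bins, PU.1 with GAGGAAGT in 4.49% against 1.2%, the E-box CAGCTG in 15.6% against 7.37%, RUNX with TGTGGTT in 9.58% against 4.73%, AP-1 with TGACTCA in 5.25% against 3.14% and GATA with AGATAA in 9.10% against 13.2%. The GC box GGGCGG was in 5.69% against 2.01%, the CRE sequence TGACGTCA in 0.401% against 0.111% and the CTCF core CAGGGGGC in 0.749% against 0.409%. The ETS core GGAAGT was in 22.5% against 11.3%, the octamer ATGCAAAT in 1.96% against 1.70% and CCAAT in 22.3% against 29.1%. Members are richer in G and C than all bins, with a median of 46.5% against 42.0%, which bears on such shares. The part of base composition in these shares was not tested. The ratios of 30 over 10 min were 3.12 with and 3.18 without EBF1, 3.01 and 3.18 for PU.1, 3.03 and 3.20 for the E-box, 3.15 and 3.18 for RUNX, 3.29 and 3.17 for AP-1, and 3.41 and 3.15 for GATA. A site for the estrogen receptor itself, GGTCA and TGACC with 3 bases of any kind between them, was in 3 members, or 0.0107%, against 0.0179% of all bins.

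**Figure D4:**
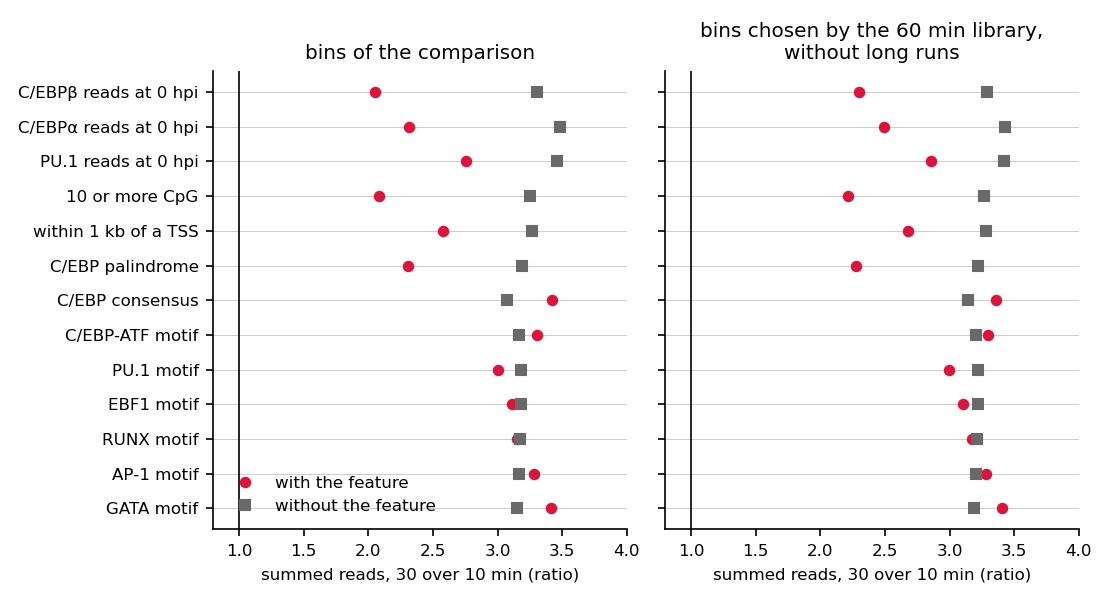
Summed reads at 30 over 10 min (x axis, ratio) in bins with (red circles) and without (grey squares) each feature, for the bins of the comparison (left) and for bins chosen by the 60-min library without long runs (right); the line marks equal counts. Bins with C/EBPβ, C/EBPα or PU.1 at 0 hpi, 10 or more CpG, a nearby TSS or the palindrome lie left of the rest on both sides, and bins with the C/EBP consensus lie right.

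Promoters rose less than distal bins. Within 1 kb of the transcription start site (TSS) of a protein-coding gene lay 3240 members (11.5%, against 3.18% of all bins), with medians of 7 and 17 reads, a ratio of 2.58 and 71.8% at least 2-fold higher. The 11928 members in introns had a ratio of 3.31 with 84.3% higher, the 12231 between genes 3.24 with 83.8% higher and the 775 in exons 2.89 with 78.3% higher. Bins with 10 or more CpG had a ratio of 2.09 with 58.8% higher, against 3.26 and 83.6% for the rest. The ratio also fell with base composition, above 35% GC. It was 3.65 in members of 30 to under 35% GC, 3.86 at 35 to under 40%, 3.19 at 45 to under 50%, 2.55 at 55 to under 60% and 2.18 at 60 to under 70%. In bins below 10 reads in the 10-, 30- and 60-min libraries the corresponding ratios were 0.942, 0.985, 0.935, 0.927 and 0.957. The part of base composition in the ratios of the members was not tested.

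Chromosomes differed little. The share of bins at least 2-fold higher lay between 77.7% on chromosome 8 and 88.2% on chromosome 13, with the exception of chromosome 11, at 70.9% with a ratio of 2.54. Chromosome 11 holds the longest of the runs described below, with nearly equal counts in both libraries.

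The 12 regions (runs of adjoining members, 1 per nearest gene) with the highest lower bound of the ratio lay in introns in 8 cases and between genes in 4, 8 held a consensus match and 1 had PU.1 at 0 hpi. Of all member bins, 42.3% lay in introns, 43.4% between genes, 24.3% held a match and 71.2% lacked PU.1 at 0 hpi, and a match was found in 36.8% of the regions at least 2-fold higher. Longer regions have more room for a match, and the shares of the 12 regions were not tested against those of the members. In the drawn 10-min reads they held 0 to 13 reads, against 38 to 255 at 30 min and 32 to 286 at 60 min. Because the drawn reads helped to choose them, the ratios below use the undrawn 10-min reads scaled to the depth of 30 min, which had no part in the choice. They ran from 4.58 to 34.8, against 9.58 to 72.8 with the whole 10-min library, which includes the drawn reads. The 30-min reads also chose the regions, and no second 30-min library can replace them.

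The region chr2:91631601-91632200 lies in an intron of Ambra1, a regulator of autophagy, 18512 bp downstream of its TSS. It held 8 drawn reads at 10 min and 255 at 30 min, and the undrawn reads gave a ratio of 11.1 (interval 7.12 to 18.3). In normalised reads it went from 2.26 at 0 hpi and 11.6 at 10 min to 196 at 30 min, 228 at 60 min and 148 at 3 hpi, and to 6.70 at 12 hpi. The region chr1:80633201-80634000 in an intron of Dock10, a guanine nucleotide exchange factor, held 7 drawn reads at 10 min and 178 at 30 min, a ratio of 12.6 (7.15 to 24.0). It was the only one of the 12 with PU.1 at 0 hpi, and its normalised reads went from 137 at 30 min to 127 at 60 min and 20.7 at 3 hpi.

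A region at chr5:63255601-63256200 in an intron of Gm17384 went from 8 to 229 reads, with a ratio of 13.99 (8.30 to 25.4), and stood at 176 normalised reads at 30 min and 1.26 at 48 hpi. By contrast, the region chr1:97425201-97425800, 138670 bp from the TSS of the polysialyltransferase gene St8sia4, went from 8 to 157 reads with a ratio of 14.4 (7.62 to 30.6) and stood at 64.1 normalised reads at 48 hpi, against 121 at 30 min. Reads at 12 hpi were below 50% of those at 30 min in 8 of the 12 regions, and reads at 3 hpi in 4. Over all members the median went from 13.8 normalised reads at 30 min to 12.6 at 3 hpi and 6.70 at 12 hpi. High 30-min reads helped to choose the 12 regions, which favours lower later levels. The same counts over all regions were not made.

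Among the others, the region chr2:131976801-131977000 near Slc23a2, a vitamin C transporter gene, held 0 drawn reads at 10 min and 39 at 30 min. The whole 10-min library held 5 reads, all of them undrawn, which gave a ratio of 7.15 (2.82 to 23.2). The region chr6:99224401-99224800, whose nearest TSS is that of the forkhead factor Foxp1 and which lies in an intron of Eif4e3, shows the effect of the draw. It held 0 of the drawn reads and 70 at 30 min, yet all 14 reads of the whole 10-min library lay among the undrawn ones, where the ratio was 4.58 (2.56 to 8.81). The region near Gm7112 on chromosome 12 held 1 read in the whole 10-min library, an undrawn one, and 38 at 30 min, a ratio of 34.8 with a wide interval (5.88 to 1411).

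**Figure D5:**
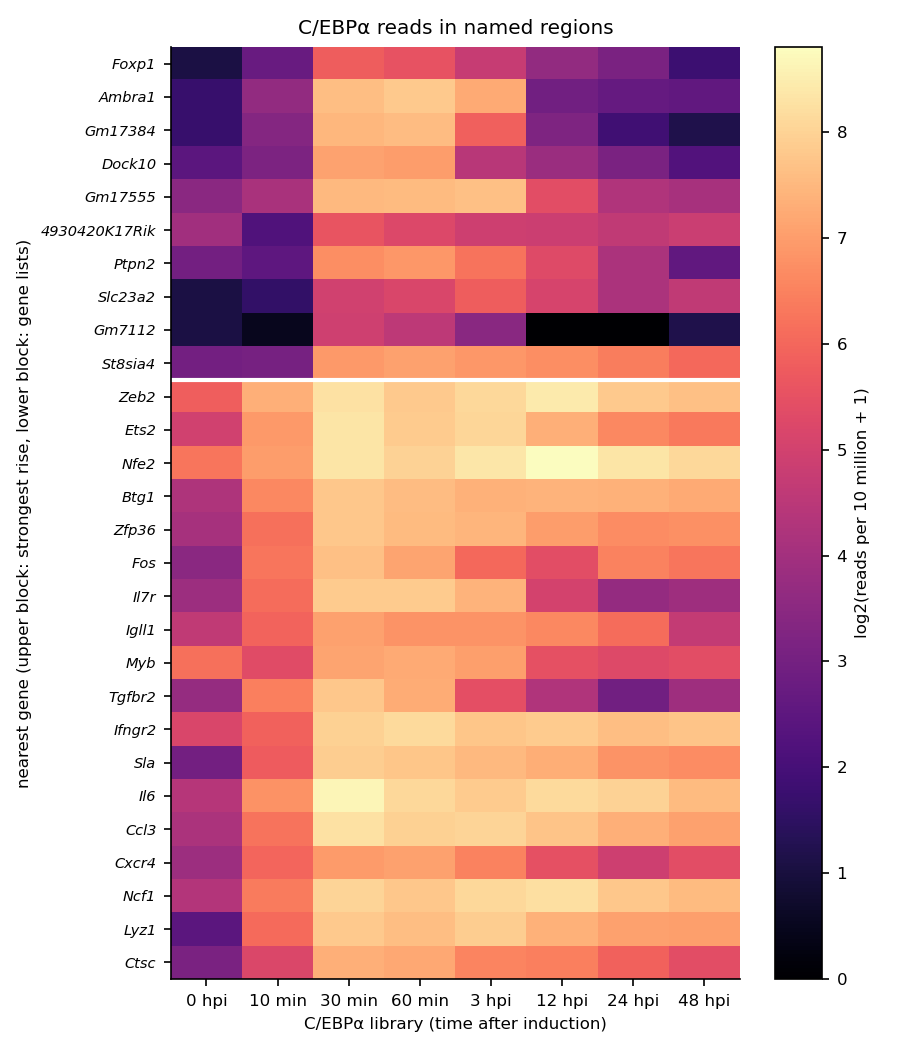
C/EBPα reads in each named region as log2(reads per 10000000 + 1), by library (x axis, 0 hpi to 48 hpi), for 10 of the 12 regions of strongest rise (above the white line) and the 3 regions with the most reads of each gene list except housekeeping genes (below it), named by the nearest gene. All of these regions are brighter at 30 than at 10 min, and Ambra1, Gm17384, Il7r and Tgfbr2 are at 31.8 or less from 12 hpi on while Zeb2, Nfe2 and Il6 stay bright.

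The 8 regions with the most reads in both libraries together, 1 per nearest gene, had ratios between 1.02 and 3.47, and 4 of them were at least 2-fold higher at 30 min. The region chr5:99557801-99558800, nearest to Prkg2, a cGMP-dependent kinase gene, went from 214 to 644 reads, a ratio of 3.01 (2.57 to 3.53). The region chr14:122337201-122338600, nearest to the receptor gene Gpr18 and in an intron of Ubac2, went from 193 to 584 reads with 3.03 (2.57 to 3.58). The region chr11:100813001-100814000, 12647 bp upstream of Stat3, a factor of cytokine signalling, went from 157 to 545 reads with 3.47 (2.90 to 4.17), and the region chr5:53845601-53846600 near Rbpj, the Notch effector, from 234 to 510 with 2.18 (1.86 to 2.56). All 4 had PU.1 at 0 hpi.

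The remaining 4 were high in every library. The run of 83 bins at chr11:3053401-3070000 in Sfi1 held 2203 reads at 10 min and 2239 at 30 min, a ratio of 1.02 (0.958 to 1.08). The run at chr17:39979801-39985800, nearest to Pgk2, held 1894 and 2568 reads with 1.36, and the regions at Gm10800 and Gm10801 on chromosome 2 had 1.72 and 1.76, or 1.94 and 2.01 with the undrawn 10-min reads. At the start of chromosome 11, 347 members averaged 18.5 normalised reads at 10 min, 19 at 30 min and 15.1 to 17.6 in the PU.1 libraries, where a bin of the genome averaged 0.813 to 0.817. In all, 392 members lay in runs of 8 or more bins. Their summed ratio was 1.201, against 3.25 for the other 27782.

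The gene lists were described by the bins whose nearest TSS belongs to a listed gene, which does not show that the gene is a target. The shares of bins at least 2-fold higher are to be read against 82.4% over all members, and the lists were drawn up with earlier results of these data known. Myeloid transcription factors, with 250 bins at 19 of the 22 genes found in the annotation, had 208 higher and 3 lower (83.2%, interval 77.98 to 87.6), and a ratio of 2.94. The region chr2:90923001-90923400 in an intron of Sfpi1, which encodes PU.1, 636 bp downstream of the TSS of a transcript that starts at chr2:90922565 and 13052 bp upstream of the next annotated TSS at chr2:90936253, held 131 reads at 10 min and 301 at 30 min, a ratio of 2.30 (1.87 to 2.84). It already stood at 53.0 normalised reads at 0 hpi and at 405 at 12 hpi. A second Sfpi1 region, chr2:90921201-90921600, lies 1146 bp upstream of the first of the annotated TSSs and 14852 bp upstream of that at chr2:90936253. It went from 7 to 47 reads and 112 at 60 min, a ratio of 6.71 (3.02 to 17.6). The other 2 regions, 548 and 2248 bp downstream of the TSS at chr2:90936253, went from 25 to 70 and from 31 to 72 reads, with ratios of 2.80 (1.75 to 4.62) and 2.32 (1.51 to 3.66). A further annotated TSS, at chr2:90936937, is nearer to both. They lie 136 bp upstream and 1564 bp downstream of it. With the undrawn 10-min reads their ratios were 4.93 (2.71 to 9.72) and 2.00 (1.31 to 3.12).

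Zeb2, a zinc finger factor, had its strongest region at chr2:45134801-45135400, with 211 and 403 reads, a ratio of 1.91 (1.61 to 2.27), and PU.1 at 301 normalised reads at 0 hpi. Ets2, an ETS factor, went from 179 to 423 reads with 2.36 (1.98 to 2.83), Nfe2, a leucine zipper factor, from 180 to 419 with 2.33 (1.95 to 2.79), and Runx1, a regulator of blood formation, from 161 to 341 with 2.12 (1.75 to 2.57). These 4 regions, like that of Sfpi1, had PU.1 at 0 hpi and 30.4 to 76.7 C/EBPα normalised reads before induction. At the coding exon of Cebpa, 2 single bins held 6 and 10 reads at 10 min and 10 and 7 at 30 min, neither past 2-fold. With the whole 10-min library the first had a ratio of 3.19 (1.05 to 10.7) and the second 0.894 (0.308 to 2.33), so at these counts the 2-fold call of the first bin depended on the draw. Cebpa sequence is also carried in the fusion, and reads of the transgene and of the gene itself cannot be told apart there. Cebpd is annotated as a pseudogene and was left out.

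No member was assigned to Cebpb, the gene of C/EBPβ, since a TSS of Tmem189 is annotated within it and takes the bins downstream, and the nearest members upstream lay closer to TSSs of Tmem189 or Ube2v1. Within 100 kb of the Cebpb TSS lay 14 regions, of which 11 were at least 2-fold higher and none at least 2-fold lower, against 83.6% higher over all 18458 regions. The region with the most reads, chr2:167579401-167580000, lies between genes 65286 bp downstream of that TSS and went from 64 to 254 reads, a ratio of 3.97 (3.01 to 5.31). It stood at 29.3 normalised reads at 0 hpi, 195 at 30 min and 549 at 12 hpi. The region chr2:167474601-167475200, 39514 bp upstream of the Cebpb TSS in an intron of Tmem189, went from 58 to 163 reads with 2.81 (2.07 to 3.86), and the region chr2:167515401-167515800 at Cebpb itself from 22 to 81 with 3.68 (2.28 to 6.20). These regions do not count among those of the myeloid transcription factors. No region lay within 100 kb of the TSS of Cebpe, a relative expressed in granulocytes.

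AP-1 factors and early response genes, with 228 bins at 23 of 25 genes, had 191 higher and 3 lower (83.8%, 78.3 to 88.3) and a ratio of 3.20. Btg1, an inhibitor of proliferation, had 132 and 285 reads at its strongest region, a ratio of 2.16 (1.75 to 2.68). Zfp36, which destabilizes cytokine mRNAs, had 94 and 287 with 3.05 (2.41 to 3.90). The region chr12:86809401-86810200, 5039 bp upstream of Fos, an AP-1 subunit, had 92 and 257 with 2.79 (2.19 to 3.58), with 198 normalised reads at 30 min and 63.8 at 3 hpi. Socs3, an inhibitor of cytokine signalling, had 60 and 270 with 4.5 (3.39 to 6.06), and Ier2, an immediate early gene, 85 and 218 with 2.56 (1.99 to 3.33).

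B cell genes had a share of higher bins close to that of all members. Their 237 bins at 25 of 29 genes had 190 higher and none lower (80.2%, 74.5 to 85.1, against 82.4%), with a ratio of 2.97 and 34.6% at least 4-fold higher, against 44.0% over all members. The region chr15:9421601-9422600, 37530 bp downstream of the TSS of Il7r, the interleukin-7 receptor needed by pre-B cells, went from 91 to 299 reads, a ratio of 3.29 (2.59 to 4.20), and from 230 normalised reads at 30 min to 31.8 at 12 hpi. Igll1, a surrogate light chain gene, had 78 and 174 reads with 2.23 (1.70 to 2.95), Myb, a factor of precursor cells, 54 and 183 with 3.39 (2.49 to 4.68), and Erg, an ETS factor, 29 and 193 with 6.66 (4.49 to 10.2). The Myb region held more C/EBPα reads at 0 hpi, 71.04 normalised reads, than at 10 min, 39.7. These 4 regions stood between 10.1 and 41.5 normalised reads at 48 hpi.

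Macrophage surface and signalling genes had 172 of 196 bins higher and 1 lower (87.8%, 82.3 to 92.0), with a ratio of 3.604 and 50% at least 4-fold higher. Tlr2, a receptor for bacterial lipoproteins, showed the largest ratio of the 35 list regions. Its region chr3:83670801-83671400, 25412 bp upstream, went from 14 to 205 reads, a ratio of 14.6 (8.53 to 27.3), had no PU.1 at 0 hpi, and stood at 158 normalised reads at 30 min and 3.77 at 48 hpi. Fcgr2b, an inhibitory Fc receptor, had 35 and 196 reads with 5.60 (3.89 to 8.27), Sla, an adaptor protein, 72 and 311 with 4.32 (3.33 to 5.66), and Ifngr2, a subunit of the interferon-γ receptor, 81 and 321 with 3.96 (3.10 to 5.12). The Ifngr2 region stood at 211 normalised reads at 48 hpi. Tgfbr2, a TGF-β receptor, had 116 and 287 with 2.47 (1.99 to 3.10) and was at 42.2 normalised reads by 3 hpi.

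Cytokines and chemokines had 81 of 93 bins higher and none lower (87.1%, 78.6 to 93.2), with a ratio of 3.49. The region chr5:30274401-30275400, 64800 bp upstream of Il6, went from 140 to 518 reads, the most at 30 min of the 35 list regions, with a ratio of 3.70 (3.06 to 4.49). Ccl3 went from 95 to 403 with 4.24 (3.39 to 5.36), Ccl2 from 41 to 175 with 4.27 (3.02 to 6.15), Il1b from 50 to 120 with 2.40 (1.71 to 3.41), and Cxcr4, a receptor that retains B cell precursors in marrow, from 93 to 161 with 1.73 (1.33 to 2.26). Il1b stood at 92.3 normalised reads at 30 min, 77.8 at 60 min and 151 at 3 hpi, and Ccl2 at 135, 137 and 182. With the undrawn 10-min reads Ccl2 had a ratio of 2.77 and Cxcr4 one of 2.50.

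Lysosome and granule genes had 75 of 81 bins higher and none lower (92.6%, 84.6 to 97.2), with a ratio of 3.61. This was the highest share of the 7 lists, but the order depended on the setting. With at least 20 reads cytokines had 95.8% against 94.4% for lysosome and granule genes, with 500-bp bins they had 66.9% against 62.6%, and in bins chosen by the undrawn 10-min reads 88% against 77.8%. Ncf1, a subunit of the NADPH oxidase, went from 107 to 340 reads with 3.18 (2.55 to 3.99), Lyz1, a lysozyme gene, from 90 to 296 with 3.29 (2.59 to 4.21), Ctsc from 45 to 210 with 4.67 (3.37 to 6.59), Ctsb from 54 to 140 with 2.59 (1.88 to 3.62) and Ctsz from 59 to 125 with 2.12 (1.54 to 2.94), the last 3 being cathepsins. Housekeeping genes had 23 of 29 bins higher and none lower (79.3%, 60.3 to 92.0), with a ratio of 2.67. At the strongest region of Ywhaz the counts were 54 and 131 with 2.43 (1.754 to 3.396), at Actb 31 and 79 with 2.55 (1.663 to 3.996), at Ppia 24 and 72 with 3 (1.87 to 4.98) and at Gusb 20 and 41 with 2.05 (1.17 to 3.69). The intervals of the 7 lists overlapped 82.4% except that of the lysosome and granule genes, and adjoining bins share fragments, so these intervals are too narrow.

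The later levels of the lists are given without a test, and the choice by 10- and 30-min reads bears on them as on all members. The mean over the bins of B cell genes was 19.8 normalised reads at 30 min, 20.1 at 3 hpi, 10.6 at 12 hpi and 4.12 at 48 hpi, with medians of 12.3, 11.7, 5.02 and 2.51. Over the bins of lysosome and granule genes the mean was 24.4, 33.3, 36.3 and 23.8 at the same times and the median 13.8, 18.9, 18.4 and 10.1. Over the 29 bins of housekeeping genes the mean was 21.5, 23.6, 22.1 and 8.84 and the median 12.3, 16.2, 18.4 and 6.28, so the level at 12 hpi was not below that at 30 min in these bins either. Myeloid transcription factors and cytokines went from means of 26.9 and 27.8 at 30 min to 12.6 and 16.2 at 48 hpi. Their medians at 48 hpi were 3.77 and 6.28. All members went from a mean of 23.1 to 8.84 and from a median of 13.8 to 3.77. Among the bins at least 2-fold higher, the 6156 with PU.1 at 0 hpi had a mean of 31.0 at 30 min and 12.7 at 48 hpi, and the 17071 without it 22.5 and 7.26. All 23227 of these bins had 24.7 and 8.69. Bins with an EBF1 motif had 27.9 and 6.81, those with an E-box 26.2 and 8.26 and those with a RUNX motif 26.0 and 8.98. Bins with an AP-1 motif had 25.5 and 13.0, those with the C/EBP consensus 29.7 and 12.6 and those with a PU.1 motif 28.0 and 14.7. The median at 48 hpi was 3.77 over all 23227 bins, and also with the consensus, with an E-box and with a RUNX motif. It was 5.03 with an AP-1 motif, 7.54 with a PU.1 motif and 2.51 with an EBF1 motif. With PU.1 at 0 hpi it was 6.28, and without it 2.51.

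The difference in the 426 bins that were lower at 30 min was smaller in reads that had not chosen them. The bins had medians of 10 reads at 10 min and 3 at 30 min, which the rule fixes, but a median of 3.82 in the undrawn 10-min reads scaled to the same depth. The summed ratio of 30 over 10 min was 0.265 with the drawn and 0.626 with the undrawn reads. In the undrawn reads 177 of the 426 were at least 2-fold above 30 min and 49 at least 2-fold below it. Their C/EBP consensus share was 9.86% (7.20 to 13.1), against 24.3% of all members and 9.28% of all bins, and 10 or more CpG were found in 13.6% (10.5 to 17.2), against 4.70% of all members and 1.03% of all bins. The 8 regions with the strongest fall, nearest to Rasal1, Reln, Mad1l1, Chrac1, Twist2, Ttll11, Sema3c and Reg3g, were single bins with 11 to 13 reads at 10 min and 0 at 30 min. In the undrawn 10-min reads they held 1.09 to 5.46 at the same depth, at 60 min 0 to 3 reads, and 1 of the 8 held a consensus match.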

How the data were processed

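Chromatin immunoprecipitation reads of C/EBPα at 10 and 30 min, with 16 further libraries for context, were taken from files in which the authors deposited 1 line per aligned read, so that the only measure is a raw read count per position. Per the study's methods the authors' alignment, by Bowtie or ELAND on mm9, allowed no mismatch, and reads that were identical or did not align uniquely were dropped. No input library was used here. One read per position and strand was kept, 5′ ends were moved 75 bp inward, the 10-min library was drawn at random to 13003437 reads, and reads were counted in 200-bp bins of chromosomes 1 to 19. The other HiSeq2000 library, 60 min, held 19539227 reads, and the others 2903580 to 11349746. Bins were called higher or lower past 2-fold, and ratios have 95% exact (Clopper-Pearson) intervals, for counting error only. Bins and regions were assigned to the nearest protein-coding TSS of an mm9 annotation (GENCODE), and sequences were read from the mm9 genome. Bins within 1000 bp of a TSS were called promoters.

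Regions are runs of adjoining bins, 1 per nearest gene. Named are the 12 with the highest lower bound of the ratio of 30 over 10 min, the 8 with the highest lower bound of the inverse, the 8 with the most reads, and in each gene list the 5 with the most reads. Some of these are not reported here. The members, lists and tests were chosen with earlier results of these data known. The counting was tested on simulated data. Alternatives covered read duplicates, shift, draw, minimum, bin size and position, scaling, region units and the choice of bins. Python 3.11.15, numpy 2.4.6, scipy 1.17.1 and matplotlib 3.10.9 were used. Versions of the upstream tools are not given in the sources used here.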

Additional observations from a re-analysis of the deposited data

How the results depend on the processing

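No main value changed direction under the alternatives, and of the 63 named regions none that was past 2-fold changed sign. The Sfi1 run, which was not past 2-fold, went from a log2 ratio of 0.023 to -0.015 with the correction for filled positions. The values that moved by more than counting error are given here, in the order bins compared, bins at least 2-fold higher, bins at least 2-fold lower, median log2 ratio, percent of reads in the bins at 10 and at 30 min, percent of higher bins with the C/EBP consensus and with PU.1 at 0 hpi, and percent of higher bins at least as high at 60 min. They were 28174, 23227, 426, 1.72, 2.05, 6.51, 26.0, 26.5 and 46.4 as reported. With at least 20 reads they were 12784, 11307, 5, 1.87, 1.495, 4.99, 29.1, 31.8 and 45.3, and the higher share was 89.9% for AP-1 and early response genes, 89.1% for B cell genes, 92.5% for macrophage surface genes and 95.8% for cytokines. With 500-bp bins and the same minimum of 10 reads they were 73247, 39526, 15454, 0.97, 5.203, 10.4, 31.1, 25.3 and 28.3, and the higher share was 60.9% for myeloid factors, 58.3% for AP-1 and early response genes, 57.8% for B cell genes, 65.6% for macrophage surface genes, 66.9% for cytokines, 62.6% for lysosome and granule genes and 43.0% for housekeeping genes. In bins chosen by the undrawn 10-min reads they were 7740, 5574, 104, 1.40, 1.25, 3.53, 29.1, 40.4 and 32.2, with 77.6% for myeloid factors, 73.8% for B cell genes and 77.8% for lysosome and granule genes. Bins chosen at 60 min gave a median of 1.58, 2.03% and 6.37% of reads, 27.7% with the consensus, 23.0% with PU.1 and 78.5% higher for macrophage surface genes. Counting runs of bins as 1 region gave 18458, 15436 higher, a median of 1.74, 36.8% with the consensus and 24.6% with PU.1. The whole 10-min library, scaled, gave 49 lower bins, a median of 1.75, 2.00% and 6.49% of reads and 87.8% higher for myeloid factors. Without bins of 10 or more C/EBPα reads at 0 hpi the median was 1.78, the reads 1.62% and 5.55%, the consensus share 24.97% and the PU.1 share 25.8%. Scaling to the reads outside the bins gave a median of 1.78 and 40.6% as high at 60 min. Moving 5′ ends by 50 bp gave 2.03% and 6.42% of reads and 25.3% with the consensus, and by 100 bp 6.49% at 30 min. PU.1 within 1000 bp was found at 37.3%, and 214 lower bins had an interval without equal counts. Of 3 alternatives chosen after seeing the data, leaving out long runs gave 1.97% and 6.41% of reads, the correction for filled positions a median of 1.77 and taking the background off 1.94. The cause of these moves was not tested, apart from the numbers of bins that each setting fixes. The Foxp1 region had a log2 ratio of 3.05 in another draw, 3.17 with the whole 10-min library and 3.24 with the correction for filled positions, Slc23a2 had 2.84 in another draw, and Ets2 1.54 with the correction. No paired analysis was possible because each time point is 1 library without a replicate number. The same limit leaves the spread between cultures unknown, and intervals cover counting error only. At a median of 6 reads at 10 min, single bins near the minimum cannot show changes of small size, and bins below it were not compared.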

Other observations

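The genes with the most regions at least 2-fold higher within 50 kb, a count made after the values were seen, were Sgms1, which encodes a sphingomyelin synthase, with 23 of its 25 regions, Tec, a tyrosine kinase of blood cells, with 21 of 23, Foxp1 with 19 of 35, Mbnl1 with 19 of 27, Camk2d with 18 of 23, Pde4b with 18 of 22 and Ssh2 with 18 of 19. The total of each gene also holds regions farther than 50 kb from its TSS. Over all regions 83.6% were at least 2-fold higher at any distance. Over all their regions the reads rose from 311 to 1199 for Sgms1, from 376 to 1302 for Tec and from 344 to 1623 for Mbnl1. Long genes offer more room for such regions, and the part of gene length in these counts was not tested.

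Among list genes outside the 5 strongest of each list, also picked after their values were seen, Emr1, which encodes the macrophage marker F4/80, had a region going from 17 to 177 reads, and Cd33, a myeloid surface gene, one going from 5 to 65. The region of Psap, a lysosomal protein gene, went from 12 to 102 reads and then from 78.4 reads per 10000000 at 30 min to 412 at 12 hpi. Csf1r, the receptor for CSF-1, had only a single bin with 4 and 11 reads.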
